A study of Mus musculus with 6 samples.

Results

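The sodium pump moves sodium out of the cell and potassium in, at the cost of ATP, and its gradients drive the uptake of phosphate, amino acids and other solutes. Its alpha subunit carries the catalytic sites, its beta subunit is needed for folding and for delivery to the cell surface, and a small FXYD protein can bind the complex and tune its affinity for ions. In fat cells, as in muscle, the pump is a known target of insulin and catecholamine signalling.

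The 7 genes described here are the beta subunits Atp1b1, Atp1b2 and Atp1b3 and the regulators Fxyd1, Fxyd2, Fxyd5 and Fxyd6, found by symbol among the 37620 gene identifiers of the deposited count files. The set was chosen by what these genes are and with their difference in counts between the groups already known, so their fold changes are given as a description, with no test. RNA came from the mature brown adipocyte layer of collagenase-digested tissue, from mice aged 6 weeks on a C57BL/6 background, labelled either wild type or PHOSPHO1 knockout. Pools of 3 mice gave 1 library each, with 3 such libraries per group. How the knockout allele was made is not given in the sources used here.

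Library totals lay between 10576800 and 14239307 counts, of which 39.1% to 56.5% fell on genes of the mitochondrial genome. Counts of Phospho1, the targeted gene, were 13, 5 and 5 in wild type and 18, 15 and 17 in the libraries labelled knockout, at 1.53 on the log2 scale (SE 0.46, edgeR adjusted p = 0.056), and so were not lower there. Every direction below is therefore that of the libraries labelled knockout. The brown fat label was met by its defining marker: Ucp1, the heat-producing uncoupling protein, had 2281 to 3283 CPM (counts scaled to a common library size, with totals adjusted by TMM, the trimmed mean of M values) in wild type and 3812 to 4865 in the knockout-labelled libraries. Skeletal muscle markers summed to 855 CPM in wild type 3 and to at most 84.5 CPM in any other library. In bulk RNA, fewer cells of a type and less RNA per cell cannot be told apart.

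FXYD proteins are named after a short signature that lies just outside the membrane. The coding DNA around it is shown for the 4 FXYD genes described, because it is what makes them a family and also shows how far they differ as targets for sequencing reads. Each run is 42 bases from the mouse GENCODE M21 transcripts, 5′ to 3′, and the 12 capital bases are the codons of the signature.
Fxyd1: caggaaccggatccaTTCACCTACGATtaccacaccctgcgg
Fxyd2: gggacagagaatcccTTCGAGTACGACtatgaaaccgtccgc
Fxyd5: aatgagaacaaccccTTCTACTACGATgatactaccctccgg
Fxyd6: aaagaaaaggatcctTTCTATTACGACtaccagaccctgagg

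Fxyd1 and Fxyd6 were the most alike, with 31 of 42 bases identical. The other pairs of these 4 genes shared 24 to 27 bases. The signature begins at codon 29 of 92 in Fxyd1, codon 17 of 64 in Fxyd2 and codon 29 of 94 in Fxyd6. In Fxyd5 it begins at codon 136 of 185 in the longest coding transcript, after a longer stretch than in the other 3 genes. No run of 50 bases in the longest transcript of any FXYD member occurred in an annotated transcript of another gene.

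Fxyd5 encodes dysadherin, the FXYD protein with a long extracellular part, known for reducing cell adhesion as well as for acting on the pump. Its level was 26.8, 32.3 and 21.4 CPM in wild-type libraries 1, 2 and 3 and 60.8, 84.0 and 138.5 CPM in knockout-labelled libraries 1, 2 and 3. Every knockout-labelled library lay above every wild-type library, and the lowest of them was still well clear of the highest wild-type value. The group means were 26.8 ± 5.4 and 94.4 ± 39.9 CPM (SD, n = 3 each), a log2 fold change of 1.81 (SE 0.31), or 3.51-fold. Of the 12068 genes tested, 0.265% had a larger log2 fold change. The SD of the knockout-labelled libraries was large because library 3 held 1358 counts against 689 and 1025 in libraries 1 and 2.

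Fxyd1 encodes phospholemman, which protein kinases A and C phosphorylate to relieve its brake on the pump. It had 49.5, 78.5 and 69.3 CPM in wild type and 76.8, 96.2 and 120.1 CPM in the knockout-labelled libraries. The groups overlapped, since wild type 2 lay above knockout-labelled 1. The means were 65.8 ± 14.8 and 97.7 ± 21.7 CPM (SD, n = 3 each), a log2 fold change of 0.57 (SE 0.26).

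Fxyd6, best known from the brain and inner ear, was a low transcript, with 33, 15 and 39 counts in wild type and 41, 35 and 34 in the knockout-labelled libraries. In CPM these were 1.86, 1.02 and 3.49 against 3.62, 2.87 and 3.47. Wild type 3 fell among the knockout-labelled libraries and the other two wild-type libraries below them. The log2 fold change was 0.66 (SE 0.43). Fxyd2, the gamma subunit of the kidney pump, held 11, 19 and 9 counts in wild type and 8, 14 and 6 in the knockout-labelled libraries. The groups overlapped almost fully, and Fxyd2 was the 1 member removed by the filter on low counts.

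None of the 3 beta subunits had groups that stood apart. Atp1b3, a widely expressed beta subunit, had the highest CPM of the 7 genes in every library, with 199.6, 252.1 and 220.6 CPM in wild type and 226.2, 267.7 and 268.8 CPM in the knockout-labelled libraries. Its groups overlapped, and the log2 fold change was 0.18 (SE 0.22). Of the 50-base runs in its longest transcript, 11.7% also occur in Gm1848, a processed pseudogene that held 7 to 18 counts against 2462 to 3700 for Atp1b3. How reads matching both genes were counted is not given in the sources used here, so these counts do not show how many were lost.

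Atp1b1, the beta subunit that also builds cell-cell contacts in epithelia, had 13.3, 16.8 and 20.5 CPM in wild type and 20.5, 20.5 and 18.6 CPM in the knockout-labelled libraries. Wild type 3 was as high as any knockout-labelled library, so the groups overlapped, and the log2 fold change was 0.23 (SE 0.25). Of its exonic bases, 18.7% also lie in exons of Nme7 on the opposite strand. The strand setting of the counting is not given in the sources used here, so reads from this stretch cannot be assigned.

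Atp1b2, an adhesion molecule of glial cells as well as a beta subunit, had 2.20, 2.04 and 6.09 CPM in wild type and 1.41, 1.97 and 3.98 CPM in the knockout-labelled libraries. Wild type 3 stood highest, and it is also the library in which skeletal muscle markers were high; the part of muscle RNA in this value was not tested. The log2 fold change was -0.48 (SE 0.51), and without wild type 3 it was 0.17, in the opposite direction.

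**Figure D1:**
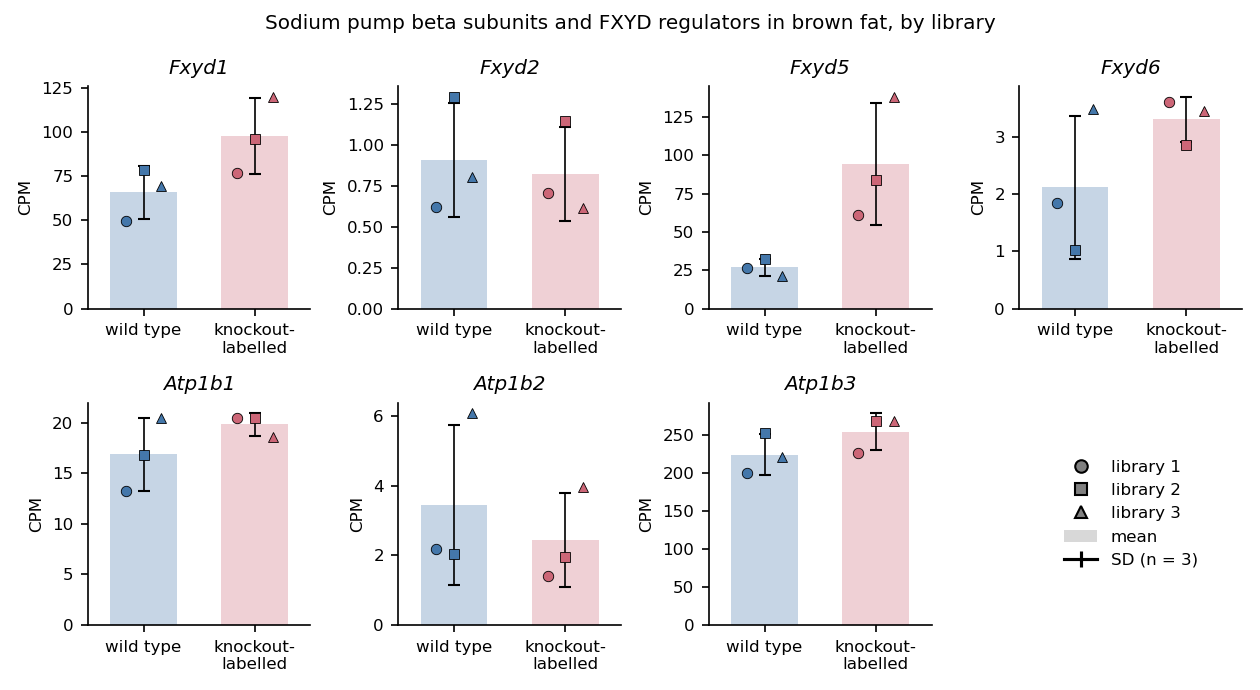
CPM of the 7 genes in each library, with the mean as a bar and the SD as an error bar (n = 3 each); the vertical axes start at 0 and differ between panels. Fxyd5 is the panel in which the groups do not overlap, with 21.4 to 32.3 CPM in wild type and 60.8 to 138.5 CPM in the knockout-labelled libraries.

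Of the 6 members tested, 5 had a positive log2 fold change and 1 a negative one, with a median of 0.40 against 0.03 over all tested genes. Fxyd5 was the 1 member past an adjusted p of 0.05 in edgeR's fit across all genes, where 9.16% of genes passed in either direction, 1.63% as higher and 7.52% as lower. It was also the 1 tested member whose groups did not overlap, which was so for 35.4% of all tested genes, 15.9% with the knockout-labelled group above and 19.6% with it below. Because the choice of members used this contrast, these counts are a description. Without wild type 1 or without knockout-labelled 3, Fxyd5 was at 1.81 and 1.42 and did not pass the threshold. Among all genes, 0 were higher and 0 lower without wild type 1, and 2 and 0 without knockout-labelled 3.

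Transcript length moved with the difference between the groups, so each tested member is set beside genes of like length. Tested genes were cut into 10 bins by the length of the longest transcript. In the bin of the shortest genes, to which Fxyd1 belongs with a longest transcript of 668 bases, the median log2 fold change was 0.59, with quartiles of 0.34 and 0.83. Fxyd1, at 0.57, lay at the middle of that range. Atp1b3 (1994 bases) lay between the quartiles of its own bin, -0.02 and 0.57. Atp1b1 (2580 bases) and Fxyd6 (2362 bases) share a bin with quartiles of -0.18 and 0.50, in which Atp1b1 lay inside at 0.23 and Fxyd6 above at 0.66, within 1 SE (0.43) of the upper quartile. Atp1b2 (3751 bases), at -0.48, lay at the lower quartile of its bin. Fxyd5 (2998 bases) lay in a bin with a median of 0.10 and quartiles of -0.31 and 0.41, far below its own 1.81. Its median coding transcript is much shorter, at 803 bases.

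The model was also fitted with offsets for length and GC content. Fxyd5 was then at 1.70 (SE 0.30) with each gene's longest transcript and at 1.46 (SE 0.27) with its median coding transcript. It passed the threshold in neither fit. Among all tested genes, 1 was higher and 0 lower in the first fit, and 5 and 3 in the second. With the median transcript Fxyd5 was at 1.58 (SE 0.28) and passed, where 81 genes were higher and 141 lower. Fxyd1 went to -0.18 (SE 0.21) with the longest and 0.03 (SE 0.22) with the median coding transcript. Both values were smaller in size than their SE, so they give no direction. Atp1b3 went to -0.01 and 0.22 with these lengths, in the same order. With library totals alone in place of TMM, which moved the median of all genes from 0.03 to -0.23, Atp1b3 was at -0.09, Atp1b1 at 0.01 and Fxyd5 at 1.48.

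**Figure D2:**
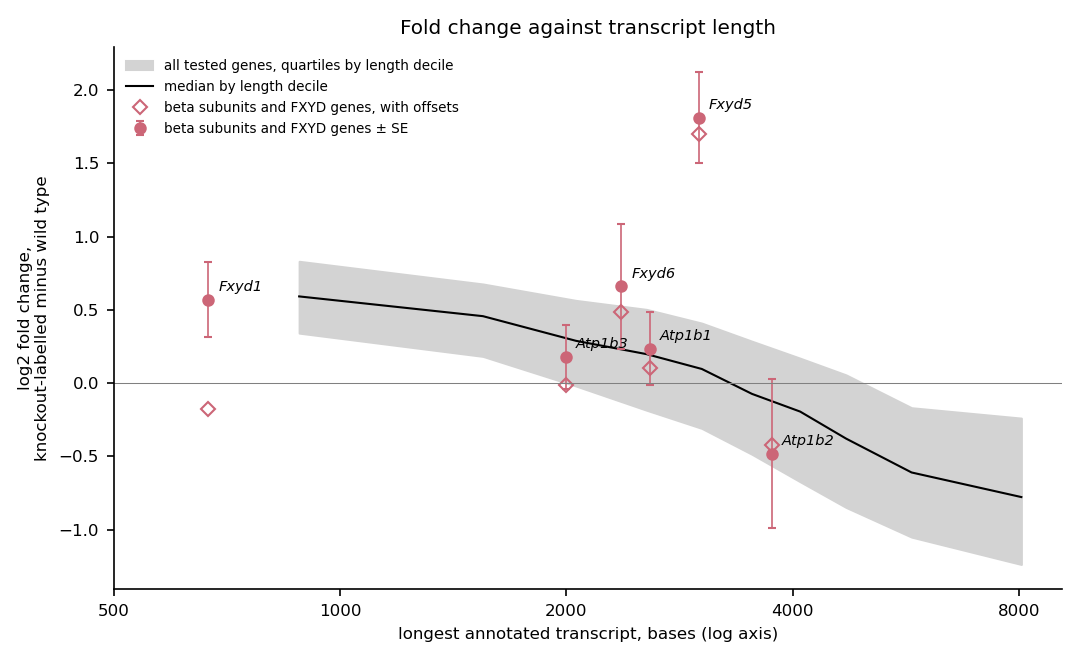
Log2 fold change (knockout-labelled minus wild type) of the tested members against the length of the longest annotated transcript on a log axis; filled points carry SE bars, open diamonds are the values with length and GC offsets, and the grey band spans the quartiles of all tested genes by length decile. Fxyd5, at 1.81, lies above the band, while Fxyd1, at 0.57, lies at the level of the shortest genes and falls to -0.18 with the offsets.

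Between genes, levels can be compared only per length, here as CPM per kilobase of the longest transcript. In wild type the order was Atp1b3 (112.4 ± 13.3 CPM per kilobase, SD, n = 3), Fxyd1 (98.5 ± 22.2), Fxyd5 (8.95 ± 1.82), Atp1b1 (6.54 ± 1.40), Atp1b2 (0.92 ± 0.61), Fxyd6 (0.90 ± 0.53) and Fxyd2 (0.54 ± 0.21). Neighbours in that order had overlapping wild-type ranges except at 2 steps: from Fxyd1 down to Fxyd5, an 11.0-fold drop, and from Atp1b1 down to Atp1b2, a 7.12-fold drop. By this length, a high pair, a middle pair and a low trio were thus apart by more than the spread between libraries.

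The annotated length matters for this order. By the median coding transcript, Fxyd1 stood first at 122.5 ± 27.6 and Fxyd5 rose to 33.4 ± 6.8 CPM per kilobase, 3.36-fold below Atp1b3 and 3.18-fold above Atp1b1. Of the 7 members, 4 changed rank between the longest and the median coding transcript, by exchanges of Atp1b3 with Fxyd1 and of Fxyd2 with Fxyd6. The high pair also split by other lengths. Atp1b3 lay above Fxyd1 with no overlap in wild type, 3.39-fold by the median transcript and 3.12-fold by merged exons. By the median transcript Atp1b2 also lay above Fxyd2 with no overlap in wild type (2.56-fold). In the knockout-labelled libraries Fxyd5 had 20.3, 28.0 and 46.2 CPM per kilobase of the longest transcript, above Atp1b1 (7.94, 7.94 and 7.19) in each of them, while the 2 ranges overlapped in wild type.

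**Figure D3:**
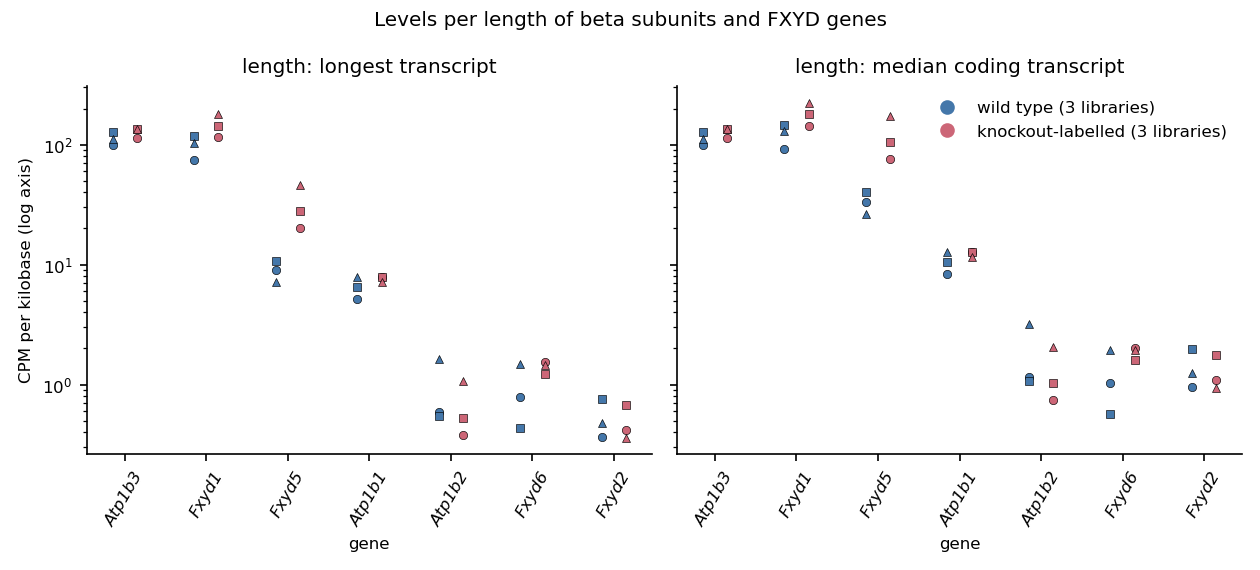
Level per length (CPM per kilobase, log axis) of the 7 members in each library, by the longest transcript on the left and the median coding transcript on the right. Atp1b3 and Fxyd1 are highest on the left, while on the right Fxyd5 in the knockout-labelled libraries (75.8 to 172.4) overlaps Atp1b3 (113.5 to 134.8). Fxyd5 is the gene whose knockout-labelled libraries (20.3 to 46.2 on the left) stand clear of its wild-type libraries (7.14 to 10.8).

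Within the beta subunits, Atp1b3 took 94.6%, 94.7% and 92.0% of the summed level per length in wild type and 93.2%, 94.1% and 94.2% in the knockout-labelled libraries. Atp1b1 took 4.87% to 6.62% over the 6 libraries and Atp1b2 at most 1.35%. The make-up of the beta subunits thus overlapped between the groups.

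Among the 4 FXYD transcripts, Fxyd1 took 88.0%, 90.8% and 91.9% of the summed level per length in wild type and 83.8%, 82.8% and 78.9% in the knockout-labelled libraries. Fxyd5 took 10.6%, 8.32% and 6.33% in wild type and 14.8%, 16.1% and 20.3% in the knockout-labelled libraries. The 2 groups did not overlap for either share, and Fxyd1 remained the larger in each library. The 2 shares make up nearly all of the sum, so the lower Fxyd1 share mirrors the higher Fxyd5 share. Mean Fxyd1 CPM itself was 65.8 in wild type and 97.7 in the knockout-labelled libraries. No background over other genes was computed for such shares. By the median coding transcript the Fxyd5 share was 16.8% to 26.2% in wild type and 34.1% to 43.2% in the knockout-labelled libraries. Fxyd2 and Fxyd6 together stayed small in both groups, with Fxyd6 at most at 1.31% and Fxyd2 at most at 0.59% by the longest transcript. The Fxyd2 share did not overlap either, at 0.42% to 0.59% in wild type and 0.16% to 0.39% in the knockout-labelled libraries. It rests on 6 to 19 counts per library. The ratio of summed FXYD to summed beta level per length was 0.80, 0.97 and 0.94 in wild type and 1.13, 1.22 and 1.59 in the knockout-labelled libraries. By the median transcript it was 0.33 to 0.38 and 0.49 to 0.76, by merged exons 0.34 to 0.40 and 0.50 to 0.74, and by the median coding transcript 1.16 to 1.37 and 1.75 to 2.69. The knockout-labelled libraries were above the wild-type ones by each of the 4 lengths. These lengths only weight the same counts differently, so they are not independent of each other. Most of the FXYD sum was Fxyd1, whose log2 fold change of 0.57 was near the median of its length bin, 0.59. Fxyd5 made up most of the rest, and its difference was known when the members were chosen. Whether FXYD exceeded beta depended on the length used.

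**Figure D4:**
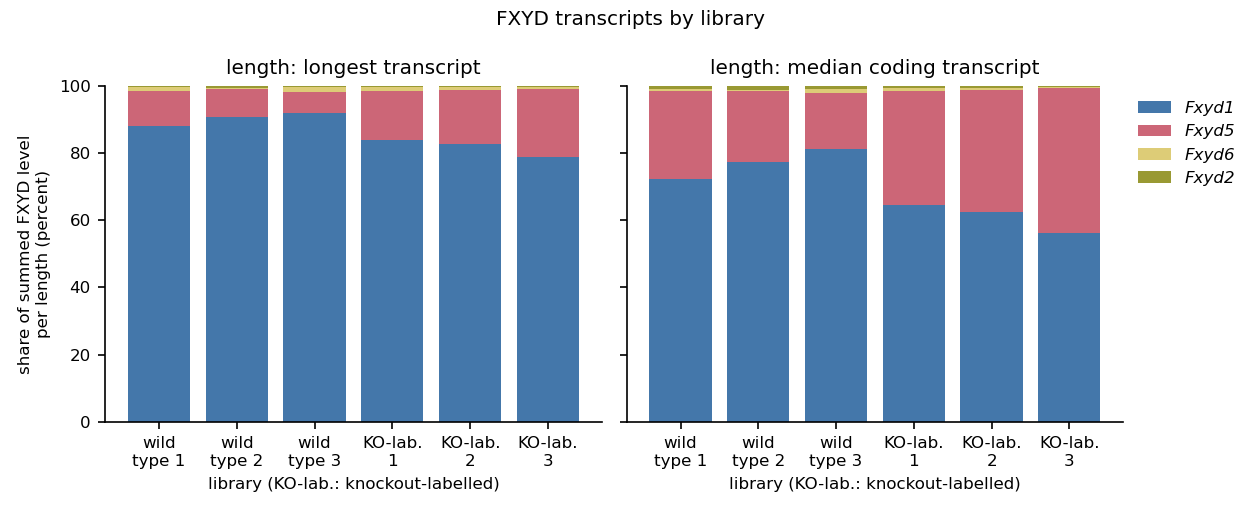
Share of the summed FXYD level per length taken by each of the 4 FXYD genes in each library (percent, stacked to 100), by the longest transcript on the left and the median coding transcript on the right. The Fxyd5 part is 6.33% to 10.6% in wild type and 14.8% to 20.3% in the knockout-labelled libraries on the left.

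Several other genes of the family were barely detected. Fxyd3 held 0 to 4 counts per library, Fxyd7 0 to 3, Atp1a4 0 to 3 and Atp1b4 0 or 1. Fxyd4 had 0 counts in all 6 libraries, and 0 counts allow a level of up to 0.211 to 0.284 CPM, depending on the library (3 counts of its total, for counting error only).

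Of 22 regulators and partners of the pump, 18 were tested, 1 rose, 3 fell and 14 did not pass, with a median log2 fold change of -0.11 against 0.03 over all tested genes, of which 1.63% rose and 7.52% fell. Sgk1, a kinase that increases sodium transport in epithelia, rose from 134.5 ± 13.9 to 241.2 ± 43.9 CPM (SD, n = 3 each), by 0.84 on the log2 scale (SE 0.23, edgeR adjusted p = 0.045). Nedd4, a ubiquitin ligase of membrane proteins, had 368.2, 207.5 and 446.3 CPM in wild type and 86.7, 131.2 and 58.9 CPM in the knockout-labelled libraries. Its log2 fold change was -1.88 (SE 0.35, edgeR adjusted p = 0.017). The steroid receptors fell too. Nr3c1, the glucocorticoid receptor, was at -1.36 (SE 0.28, edgeR adjusted p = 0.020). Nr3c2, the mineralocorticoid receptor, had 2.76, 2.45 and 2.78 CPM in wild type and 0.62, 0.82 and 0.61 CPM in the knockout-labelled libraries. Its log2 value was -1.94 (SE 0.38, edgeR adjusted p = 0.019).

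These 3 genes that fell have longest transcripts of 5499 to 6436 bases, in a length bin where 18.6% of genes fell. With the offsets Sgk1, Nedd4, Nr3c1 and Nr3c2 were at 0.87, -1.32, -0.53 and -1.43, and none of them passed (edgeR adjusted p = 0.064, 0.062, 0.149 and 0.064). With these longest-transcript offsets, 1 gene passed as higher and 0 as lower among all tested genes. Without wild type 1 or without knockout-labelled 3, 0 of the 3 passed as lower, as did 0 of all genes. Sgk1 passed in 1 of the 6 fits that leave out a library.

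Of 36 sodium, potassium and sodium-coupled transport genes, 28 were tested, 1 rose, 6 fell and 21 did not pass, with a median of -0.25, again beside 1.63% rising and 7.52% falling over all tested genes. Trpm7, a cation channel with a kinase domain, was at -2.17 (SE 0.35, edgeR adjusted p = 0.016), from 52.5 ± 15.7 to 11.7 ± 5.2 CPM (SD, n = 3 each). The myo-inositol carrier Slc5a3 was at -1.51, the bicarbonate carrier Slc4a4 at -0.81 and Abcc9, a subunit of potassium channels, at -1.17 (edgeR adjusted p = 0.028, 0.046 and 0.049). Slc9a3r2, a scaffold protein of the sodium-proton exchangers, rose by 0.84 (edgeR adjusted p = 0.048). With the offsets Trpm7 was at -1.18, Slc5a3 at -0.42, Slc4a4 at -0.06, Abcc9 at -0.41 and Slc9a3r2 at 0.37, and none of the 28 passed. Among all tested genes, 1 was higher and 0 lower with these longest-transcript offsets. Without wild type 1 or without knockout-labelled 3, 0 genes of this list passed in either direction. Among all genes these fits called 0 higher and 0 lower, and 2 and 0.

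Of 14 related calcium and proton pumps and their small regulators, 6 were tested and 0 passed in edgeR, with a median of -0.76. Of these, 3 had an unadjusted edgeR p under 0.05, as had 3718 of all 12068 tested genes. Their median length was 5140 bases, and with longest-transcript offsets their median was -0.13. The lowest was Atp2a1 at -3.66 (SE 1.82), with 196.9 CPM in wild type 3, where muscle markers were high, and at most 9.34 CPM elsewhere. The part of muscle RNA in it was not tested. Total counts alone and DESeq2 each called 1 of the 6 lower, where 1389 and 1350 genes were lower among all. Without wild type 2, 3 of the 6 were lower, as were 1383 of all 12323 genes in that fit.

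Markers of other cell types were set beside Fxyd5, since white blood cells and vessels also express it. The 8 leukocyte markers summed to 88.7 to 200.3 CPM in wild type and 227.3 to 518.1 CPM in the knockout-labelled libraries. These ranges did not overlap, as was so for 35.4% of single tested genes, and none of the 8 was at 0. Most of that sum was Lyz2, the macrophage lysozyme, which rose by 1.43 on the log2 scale (edgeR adjusted p = 0.040). Of the 8 log2 fold changes 6 were positive, with a median of 0.66, and Lyz2 was the 1 that passed. Ptprc, the pan-leukocyte surface marker, and Csf1r, a macrophage receptor, were the negative ones, at -0.62 and -0.74. The 8 endothelial markers summed to 532.8 to 628.0 CPM in wild type and 654.0 to 834.5 CPM in the knockout-labelled libraries. These ranges did not overlap either, and 0 of 8 markers were past the threshold. Their log2 fold changes went both ways, from -1.04 for Kdr to 1.07 for Cldn5, with a median of 0.21. The 5 erythroid markers summed to 365.7 to 1376 CPM in wild type and 1208 to 3500 CPM in the knockout-labelled libraries, with 2 higher. In knockout-labelled libraries 1, 2 and 3 the leukocyte sums were 456.1, 227.3 and 518.1 CPM and the erythroid sums 2824, 1208 and 3500 CPM. Fxyd5 had 60.8, 84.0 and 138.5 CPM in the same libraries. The part of leukocytes, vessels and erythroid cells in the Fxyd5 difference was not tested. Summed stromal markers were at 677.1 to 862.2 CPM in wild type and 775.0 to 926.7 CPM in the knockout-labelled libraries, with 0 of 7 past the threshold. Mural markers were at 843.7 to 1324 and 500.9 to 965.0 CPM with 2 higher. The largest part of that sum was Rgs5, at -0.98, while Acta2 and Tagln were the 2 higher ones and the median of the list was 0.07. Schwann and neural markers were at 70.1 to 110.2 and 96.8 to 124.4 CPM with 1 higher and 1 lower. Adipocyte markers overlapped, at 17268 to 23018 and 17206 to 24326 CPM, with 0 of 7 past the threshold. Brown adipocyte markers summed to 4349 to 6989 and 7575 to 9430 CPM, also without overlap, but their members went both ways. Cox7a1, a subunit of cytochrome c oxidase, rose by 1.02 (edgeR adjusted p = 0.045). Dio2, which activates thyroid hormone, and Ppargc1a, a coactivator of mitochondrial genes, fell and were at -2.08 and -1.07 (edgeR adjusted p = 0.018 and 0.034). Mesothelial and epithelial markers summed to 1.36 to 5.30 CPM, with Upk3b and Krt8 at 0 in every library. All these marker calls are those of the main fit, where 1.63% of all tested genes were higher and 7.52% lower. The markers were not set beside genes of like length. With longest-transcript offsets 1 gene was higher and 0 lower among all tested genes, and without wild type 1 these counts were 0 and 0.

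For each member, the genes with the most similar pattern over the 6 libraries were found by the root mean square difference of log2 CPM values centred on each gene's mean, among 7943 genes. Fxyd5 was nearest to Synpo (0.25), Ifitm3 (0.27) and Ecscr (0.28), and Fxyd6 to Sox7 (0.19), Ltbp4 (0.25) and Gata2 (0.26). Fxyd1 had much closer matches, Mrpl42 (0.03), Naca (0.03) and Rtraf (0.04). Atp1b3 was nearest to Apoe (0.04) and Pfdn2 (0.05), and Atp1b1 to Wdsub1 (0.07), Zfp422 (0.08) and Dph6 (0.09). Atp1b2 was nearest to Med15 (0.20), Cryab and Smarce1 (0.28 each). Depth differed between the 6 libraries and the length trend ran across genes, so such likeness is a description. The distances are also not scaled by each member's own spread, a root mean square of 0.16 for Atp1b3 and 0.95 for Fxyd5.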

How the data were processed

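RNA sequencing libraries from 6 pools of mice were used. The authors deposited raw counts, whole numbers of reads per Ensembl gene. The submitters' processing notes name STAR 2.5.4b and the mouse build mm9. Not given in the sources used here are the counting program, its strand setting, its annotation and its handling of reads that match several places. Because GENCODE M21 lies on GRCm38, it supplied symbols (32897 of 37620 identifiers), lengths and sequences, and no coordinates are printed.

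Genes passing filterByExpr (minimum count 10, minimum total 15) were fitted in edgeR 4.0.16 (R 4.3.3) with TMM scaling and a two-sided robust quasi-likelihood test, adjusted by Benjamini-Hochberg over 12068 genes at a threshold of 0.05. SEs came from the F statistic. CPM used TMM-scaled totals. Offsets were fitted per library on length and GC with smooth terms of basis size 6 (mgcv 1.9.3). DESeq2 1.42.0 and limma-voom (limma 3.58.1) were alternatives, and scripts were tested on simulated data. Nothing in the labels pairs the libraries, and p-values measure the spread between pools.

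Members and lists were chosen with earlier results of these data known. Genes named were the members, other genes of their families, up to 6 genes per other list past the threshold by p, and the 3 likeliest patterns per member with a mean of at least 5 CPM, leaving out predicted genes and pseudogenes. Marker genes named (Ucp1, Cox7a1, Dio2, Ppargc1a, Lyz2, Ptprc, Csf1r, Kdr, Cldn5, Rgs5, Acta2, Tagln, Upk3b and Krt8) come from the marker lists and were picked after their values were seen. Atp2a1 was likewise named after its values were seen. Some genes that this rule names are not reported here. Every cell type marker list was compared by summed CPM.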

Additional observations from a re-analysis of the deposited data

How the results depend on the processing

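Log2 fold changes of the 6 tested members were refitted under 19 alternatives. Fxyd5 stayed between 1.42 and 2.05 and passed the threshold in 14 of them, and Fxyd6 stayed between 0.33 and 1.15. Fxyd1 was at -0.18 with offsets for the longest transcript and GC (also with the replicate block), 0.080 with the median transcript and 0.028 with the median coding transcript, an alternative chosen after seeing the data. Atp1b3 was at -0.014 with the longest-transcript offsets, -0.024 with the block added and -0.091 with total counts, where Atp1b1 was at 0.0065. Atp1b2 turned to 0.17 without wild type 3. Deviations of same-numbered libraries correlated at 0.14, -0.53 and 0.03, which gave no sign of pairing by number but cannot exclude it. The highest value was 0.54, for wild type 3 with knockout-labelled 2. The replicate block moved the calls among all genes to 223 higher and 976 lower and left 1 member higher.

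Among all genes, 197 were higher and 908 lower. These counts were 29 and 1389 with total counts, 493 higher by DESeq2, 1 and 0 with longest-transcript offsets, 0 and 0 with the block added, 81 and 141 with median-transcript offsets, 5 and 3 with median-coding-transcript offsets, and 1 and 0 at an adjusted p of 0.01. In edgeR, 2786 and 2474 genes had an unadjusted p under 0.05 where the counts were 1 and 0 and where they were 0 and 0. Leaving out 1 library gave 0 to 688 higher and 0 to 1383 lower genes. Without wild type 1 the edgeR counts were 0 and 0, with 2251 genes at an unadjusted p under 0.05, and without knockout-labelled 3 they were 2 and 0, with 2672. Fxyd5 passed under median-transcript offsets but under neither of the other lengths, and not at 0.01, so 0 members were then higher; leaving out 1 library gave 0 or 1.

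Of the pump regulators, 1 was higher and 3 lower. None was higher with total counts, no filter, any of the offsets or the stricter threshold (0 each), and 2 were by DESeq2. With median-transcript offsets 1 was lower, and with the other offsets and the stricter threshold 0 were. Of the transport genes, 1 was higher and 6 lower. The number higher was 2 by DESeq2 and with the 1 CPM filter, and 0 with total counts, no filter, the block, any offsets or the stricter threshold. The number lower was 3 with RLE scaling, 2 with upper-quartile scaling, 3 by limma-voom, 1 with median-transcript offsets, and 0 with the other offsets and the stricter threshold. Of the related pumps, 1 was lower with total counts and by DESeq2. Leaving out 1 library gave 0 to 2 regulators higher and 0 to 4 lower, 0 to 1 transport genes higher and 0 to 7 lower, and 0 to 3 related pumps lower. The cause of these moves was not tested.

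Ranks by level per length changed for 2 members with the median transcript, 4 with the median coding transcript and 0 with merged exons. With the median transcript and with merged exons, the wild-type ranges of Atp1b3 and Fxyd1 no longer overlapped. At 6 to 68 counts per library, Fxyd2, Fxyd6 and Atp1b2 are the members that depth limits most, with SEs of 0.43 for Fxyd6 and 0.51 for Atp1b2.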
